A study of Gallus gallus with 40 samples.

Results

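Mitosis genes encode the machinery that condenses the chromosomes, builds the spindle, attaches chromosomes to it and splits the cell. They were followed here in the chorioallantoic membrane of the chicken embryo, the vascular membrane under the eggshell that serves gas exchange and shell calcium uptake. The list holds 41 genes chosen by name (mitotic kinases, kinesins, kinetochore, condensin and cytokinesis genes), with earlier results of these data known. Of these, 38 were named in the annotation and measured, among 26152 gene models in all. CCNB2, KIF4A and MKI67 were not named there and were not analysed here. All 38 passed the filter on low values, which asked for at least 0.5 FPKM (fragments scaled to transcript length and library size) in at least 10 libraries.

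The membranes came from Ross 308 broiler embryos, a meat chicken line, with no treatment, transgene or mutation named in the labels. There were 4 groups of 10 embryos each, namely females (ZW) and males (ZZ) at day 11 and females and males at day 15 of incubation. Each of the 40 libraries of whole membrane RNA came from a different embryo. Embryos are called here by the number in their label, which is 48 or lower at day 11 and 52 or higher at day 15.

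In dividing cells most of these genes are transcribed late in the cell cycle, in the phases called G2 and M. The transcription factors FOXM1 and MYBL2 drive many of them, and the DREAM complex, which includes the pocket protein RBL2, silences them in cells that leave the cycle. Some of the proteins are then removed at the end of mitosis by the anaphase-promoting complex (APC/C), a ubiquitin ligase. The summed level of such genes is therefore widely read as a measure of dividing cells, and the membrane is known to grow over the shell during the first part of incubation and to mature afterwards.

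The depth behind the values was 28.3 to 49.2 M reads per library (median 35.4). The fewest reads behind a member value were 86, for MELK. Day 15 female 83 stood apart in cell type markers, with the lowest level of its group in 10 of 10 endothelial genes, against 17.4% of all tested genes. Its median log2 deviation from the group mean was -0.63 in endothelial, -0.53 in erythroid, 0.02 in stromal and 0.19 in epithelial genes. It was 0.67 in leukocyte and 0.88 in smooth muscle and mural genes. Results were repeated without this library. Day 15 female 54 and day 15 male 93 were low in mitosis genes and are described with the libraries.

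All 38 measured mitosis genes were lower at day 15 than at day 11. The median change was -1.53 on the log2 scale, and the range ran from -2.04 for PLK1 to -0.67 for DLGAP5. Among all 15880 tested genes the median change was 0.00061, and 30.3% were called lower. In females alone 38 of 38 were lower, against 23.2% of all genes, and in males alone 38 of 38, against 24.1%. A fall of at least 2-fold was found in 36 of 38 members and in 4.31% of all genes, the exceptions being SMC4 and DLGAP5. The largest adjusted p among the 38 was 3.06e-11 (limma, Benjamini-Hochberg over all tested genes). Changes are on the log2(scaled FPKM + 0.1) scale, averaged over the sexes unless stated. In RNA from whole tissue, fewer dividing cells and less of these RNAs per dividing cell cannot be told apart.

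The groups were also separate library by library. Ranges, medians and overlaps are given in FPKM not scaled between libraries, unless stated, while the tests used scaled values. In 36 of 38 members every day 15 library lay below every day 11 library, which held for 3.47% of all tested genes. The same 36 of 38 were counted without day 15 female 83, where the share of all genes was 3.8%. The other two members were ANLN and DLGAP5. The summed FPKM of the 38 members ran from 793 to 952 (median 849) in day 11 females and from 830 to 1010 (median 908) in day 11 males. It ran from 210 to 337 (median 302) in day 15 females and from 213 to 387 (median 310) in day 15 males, so the sum at day 15 never reached the sum in any day 11 library.

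**Figure D1:**
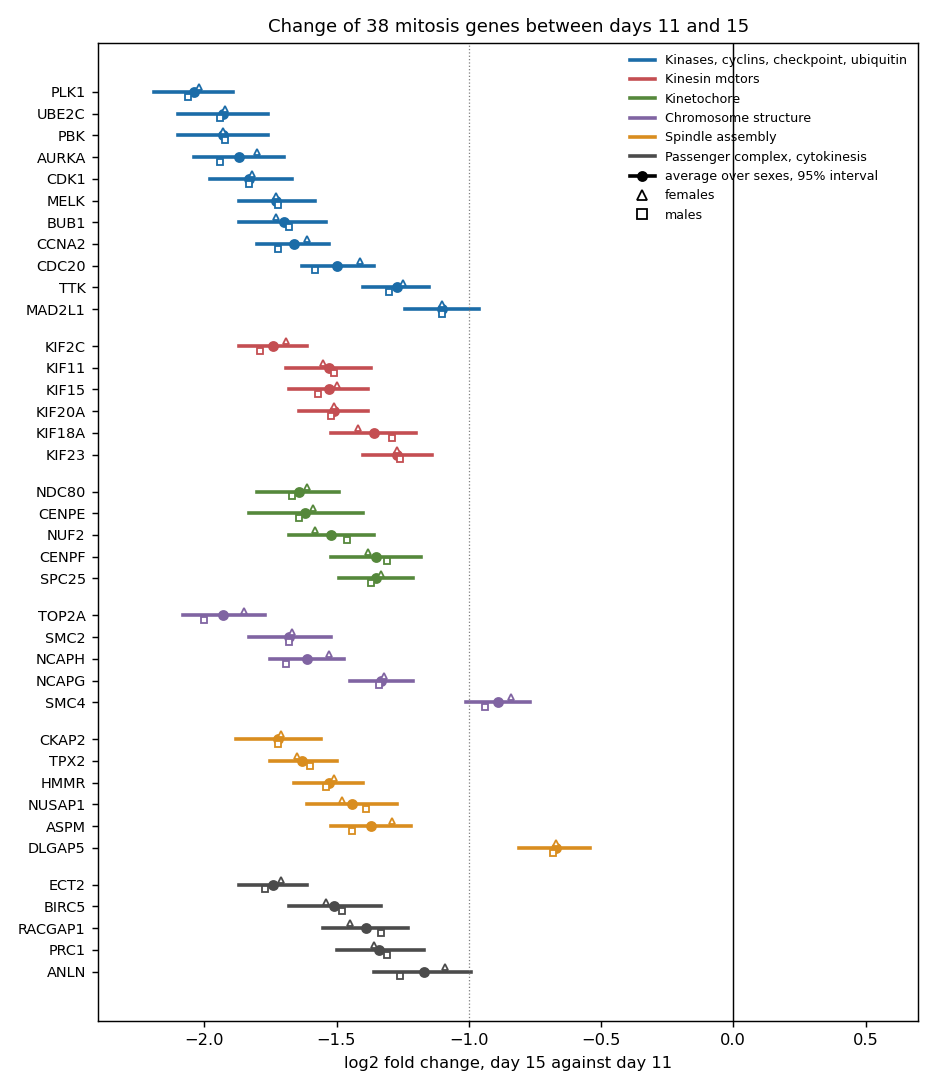
Log2 fold change of the 38 measured mitosis genes between days 11 and 15 (x axis), by role (colour) and ordered by size within a role. Filled points with bars are the average over sexes with its 95% interval, open triangles are females and open squares males; the dotted line marks a 2-fold fall, and all points lie left of 0 with SMC4 and DLGAP5 nearest to it.

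Markers of other cell types were also called by day, and their part in the fall of the mitosis genes was not tested. Over all tested genes 30.3% were called lower and 29.9% higher. Of 15 leukocyte genes 11 were lower and 3 higher, while their summed FPKM ran from 127 to 280 over the day 11 libraries and from 133 to 295 over the day 15 libraries. Of 14 epithelial genes 11 were higher and 1 lower, and the sum ran from 3280 to 4510 at day 11 and from 4550 to 7060 at day 15. All 9 called of 10 smooth muscle and mural genes were higher, with sums of 708 to 1590 and 1430 to 2470. Of 10 endothelial genes 7 were higher and 2 lower, with sums of 667 to 1020 at day 11 and 643 to 1320 at day 15. Of 15 stromal fibroblast genes 8 were lower and 4 higher, with sums of 5860 to 10200 and 5850 to 10300, and of 13 erythroid genes 3 were lower and 4 higher, with sums of 16300 to 41900 and 11900 to 48700. The erythroid counts lie near the shares over all genes. Every listed marker found in the table passed the filter on low values, so each of these was detected in the membrane RNA. The sums of the epithelial markers, like those of the mitosis genes, did not overlap between the days, and the sums of the other 5 lists did.

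The kinases, cyclin, checkpoint proteins and ubiquitin factors that time mitosis fell the most among the roles, by a median of 1.73 on the log2 scale over 11 measured genes. PLK1, the polo-like kinase that acts at centrosomes, kinetochores and the cleavage site, had the largest change of all members. Day 11 libraries held 26.6 to 38.7 FPKM (median 31.5) in females and 27.4 to 39.4 (median 32.9) in males. Day 15 libraries held 5.24 to 9.88 (median 8.03) in females and 5.08 to 10.1 (median 7.75) in males. The day 11 libraries thus lay far above all day 15 libraries, and the sexes overlapped. The change of -2.04 (SE 0.074) is a level 4.10-fold higher at day 11, and PLK1 ranked 86th by fall among the 15880 tested genes. The PLK1 model shares exon sequence with ERN2 on the opposite strand, and the strand setting of the counting is not given in the sources used here.

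CDK1, the kinase that drives entry into mitosis, had the highest level of the members. In day 11 females the level was 85.9 to 116 FPKM (median 98.6), and in day 11 males it was 82.9 to 118 (median 104). The day 15 ranges were 16.8 to 31.9 (median 29.1) in females and 17.7 to 37.2 (median 28.4) in males. The day groups were separate and the change was -1.83 (SE 0.076). CCNA2, the cyclin partner of CDK1 before mitosis, changed by -1.66 (SE 0.068), from a median of 31.8 FPKM over the 20 day 11 libraries to 10.1 over the 20 day 15 libraries.

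UBE2C, the ubiquitin-conjugating enzyme of the APC/C, was the next highest in level. Its FPKM ran from 59.3 to 87.8 (median 66.2) in day 11 females and from 55.1 to 86.4 (median 67.4) in day 11 males. In day 15 females it ran from 12.8 to 23.2 (median 18.4) and in day 15 males from 11.8 to 24.3 (median 18). There was no overlap between days, and the change was -1.93 (SE 0.084). CDC20, the activator that brings substrates to the APC/C, changed by -1.50 (SE 0.068), from a median of 35.7 to 12.6 FPKM.

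MAD2L1, the checkpoint protein that holds CDC20 inactive until chromosomes are attached, had the smallest change of this role. Day 11 libraries held 19.9 to 29 FPKM (median 25.2) in females and 21.5 to 31.1 (median 26.4) in males. At day 15 it ran from 9.03 to 15.5 (median 11.7) in females and from 8.23 to 14.3 (median 11.6) in males. The days did not overlap, and the change of -1.10 (SE 0.069) was 2.14-fold. The checkpoint kinases BUB1 and TTK changed by -1.70 (SE 0.081) and -1.27 (SE 0.063), and the 95% interval of BUB1 (-1.87 to -1.54) and that of TTK (-1.40 to -1.15) did not meet. AURKA, the centrosome kinase that matures the spindle poles, changed by -1.87 (SE 0.082).

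PBK, a kinase of dividing cells also known as TOPK, changed by -1.93 (SE 0.084). In day 11 females the level was 22.4 to 32.4 FPKM (median 27.7), and in day 11 males it was 22.3 to 32.5 (median 27.8). Day 15 libraries held 4.57 to 8.41 (median 7.61) in females and 4.39 to 8.94 (median 7.19) in males, again with no overlap. MELK, a leucine zipper kinase of proliferating cells, changed by -1.73 (SE 0.073) and is taken up with the sexes.

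The kinesins, motors that move along microtubules, changed by a median of -1.52 over 6 measured members. KIF2C, which takes microtubules apart at the kinetochore to release wrong attachments, changed the most. Its FPKM ran from 7.75 to 9.72 (median 8.71) in day 11 females and from 7.46 to 9.95 (median 8.85) in day 11 males. The day 15 ranges were 2 to 3.43 (median 2.67) in females and 1.77 to 3.21 (median 2.41) in males. The days were separate and the change was -1.74 (SE 0.063).

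KIF23, the motor of the centralspindlin complex at the cell midzone, had the highest level and the smallest change of the kinesins. In day 11 females its FPKM ran from 20.3 to 28.8 (median 24.8) and in day 11 males from 23.0 to 28.1 (median 25). In day 15 females it ran from 7.35 to 12.3 (median 9.81) and in day 15 males from 7.87 to 14.4 (median 9.31). The days did not overlap, and the change was -1.27 (SE 0.064). KIF11, which pushes the spindle poles apart, and KIF15, which backs it up, both changed by -1.53 (SE 0.077 and 0.074). KIF20A, a motor of the late spindle midzone, changed by -1.51 (SE 0.066) in a model annotated as a pseudogene that shares exons with SFXN1 on the opposite strand. KIF18A, which damps chromosome movements at the spindle equator, changed by -1.36 (SE 0.079) from the lowest day 11 median of all members, 5.17 FPKM.

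The kinetochore genes, whose products tie chromosomes to microtubules, changed by a median of -1.52 over 5 members. NDC80, the microtubule-binding subunit of the complex of the same name, changed the most. Day 11 libraries held 6.32 to 9.59 FPKM (median 8.31) in females and 7.41 to 9.74 (median 9.06) in males. At day 15 it ran from 1.56 to 3.32 (median 2.66) in females and from 1.70 to 3.36 (median 2.87) in males. The days were separate, and the change was -1.64 (SE 0.076).

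The other two measured subunits of that complex had higher levels. NUF2, which pairs with NDC80, had the highest level of the kinetochore genes, at 14.5 to 21.6 FPKM (median 17.5) in day 11 females and 15.1 to 21.8 (median 17.9) in day 11 males. At day 15 NUF2 ran from 4.23 to 7.56 (median 6.04) in females and from 4.30 to 8.10 (median 6.46) in males. These ranges left a gap between the days, with a change of -1.52 (SE 0.079). SPC25, which anchors the complex to the inner kinetochore, changed by -1.35 (SE 0.068). CENPE, the kinetochore motor that carries chromosomes to the equator, changed by -1.62 (SE 0.11).

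CENPF, a large protein of the outer kinetochore and of the nuclear matrix in G2, had the smallest change of this role. In day 11 females the level was 3.82 to 6.17 FPKM (median 5.40), and in day 11 males it was 4.27 to 6 (median 5.25). Day 15 libraries held 1.02 to 2.57 (median 2.06) in females and 1.44 to 3.07 (median 1.94) in males. The days did not overlap, and the change was -1.35 (SE 0.085).

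The genes of chromosome structure changed by a median of -1.61 over 5 measured members, from -1.93 to -0.89. TOP2A, the topoisomerase that untangles sister DNAs, had the largest change of the role and the highest mean level over all libraries, although SMC2 was higher in males. Its FPKM ran from 33.5 to 46.6 (median 40.8) in day 11 females and from 39.7 to 48.5 (median 45.1) in day 11 males. The day 15 ranges were 7.47 to 14.8 (median 11.6) in females and 6.56 to 14.9 (median 11.6) in males. The days were far apart, and the change was -1.93 (SE 0.078).

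SMC4, the condensin ATPase that pairs with SMC2, had the smallest change of the role. Day 11 libraries held 14.1 to 22.4 FPKM (median 19.2) in females and 18.3 to 22.3 (median 19.9) in males. At day 15 it ran from 7.37 to 12.3 (median 10.7) in females and from 7.65 to 13.2 (median 10.3) in males. The days stayed apart by a narrow gap, and the change of -0.89 (SE 0.059) was 1.86-fold. SMC2 itself changed by -1.68 (SE 0.076), and the 95% intervals of the pair (-1.83 to -1.52 and -1.01 to -0.77) did not meet. The SMC4 model shares exon sequence with TRIM59 on the opposite strand. NCAPH and NCAPG, the bridging and a HEAT-repeat subunit of condensin I, changed by -1.61 (SE 0.069) and -1.33 (SE 0.059). NCAPH shares exons with an unnamed model on the opposite strand.

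The spindle assembly genes changed by a median of -1.48 over 6 members. CKAP2, a microtubule-stabilising protein of the spindle, changed the most. In day 11 females the level was 24.4 to 33.7 FPKM (median 28.7), and in day 11 males it was 26.9 to 33.9 (median 31.5). Day 15 libraries held 4.92 to 10.3 (median 8.95) in females and 5.92 to 12.5 (median 9.33) in males. The days did not overlap, and the change was -1.72 (SE 0.081).

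DLGAP5, a microtubule-bundling protein near chromosomes also known as HURP, had the smallest change of all members. It had the highest mean log2 level of this role over all libraries. Its FPKM ran from 19.9 to 30.5 (median 27.3) in day 11 females and from 22.3 to 31.1 (median 27.6) in day 11 males. The day 15 ranges were 9.96 to 20.4 (median 17.5) in females and 12.8 to 20.7 (median 16.6) in males. The highest day 15 libraries reached the lowest day 11 library, so the days overlapped at 1 end. The change of -0.67 (SE 0.068, 95% interval -0.81 to -0.54) was 1.60-fold and passed the test. TPX2, which activates AURKA on the spindle, changed by -1.63 (SE 0.063), from a day 11 median of 33.8 FPKM, above the 27.6 of DLGAP5. HMMR, a centrosome protein, changed by -1.53 (SE 0.066). NUSAP1, which bundles spindle microtubules, changed by -1.44 (SE 0.084), and the spindle pole protein ASPM by -1.37 (SE 0.073). ASPM shares exon sequence with ZBTB41 on the same strand, so reads there cannot be assigned by strand, and CKAP2 with VPS36 on the opposite strand.

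The chromosomal passenger and cytokinesis genes fell the least as a role, by a median of 1.39 over 5 members. ECT2, an exchange factor that acts at the division plane, changed the most. Day 11 libraries held 8.34 to 13.1 FPKM (median 10.6) in females and 9.87 to 12.3 (median 10.7) in males. At day 15 it ran from 2.42 to 3.65 (median 3.18) in females and from 2.20 to 4.35 (median 3.13) in males. The days were separate, and the change was -1.74 (SE 0.064).

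BIRC5, the passenger complex subunit survivin, had the highest level of the role. In day 11 females it ran from 39.1 to 59.1 FPKM (median 51.4) and in day 11 males from 41.6 to 62.6 (median 52.8). Day 15 libraries held 13.8 to 18.8 (median 17.1) in females and 10.6 to 25.2 (median 19.1) in males. The days did not overlap, and the change was -1.51 (SE 0.086). RACGAP1, the partner of KIF23 in centralspindlin, changed by -1.39 (SE 0.080). PRC1, which cross-links midzone microtubules, changed by -1.34 (SE 0.080) in a gene model of only 783 bases.

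ANLN, the scaffold protein anillin of the contractile ring, had the smallest change of the cytokinesis genes. For day 11 females the level was 11.5 to 24.4 FPKM (median 20.1), and in day 11 males it was 14.3 to 25.8 (median 19.1). The day 15 ranges were 5.72 to 10.7 (median 8.57) in females and 5.24 to 12.4 (median 8.18) in males. In unscaled FPKM the lowest day 11 library, female 6, lay below the highest day 15 library, male 72. The scaling factors used for the test, by which values are divided, were 0.914 for female 6 and 1.015 for male 72. Scaling thus raises the first and lowers the second, and overlap was not counted on scaled values. The change was -1.17 (SE 0.093).

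**Figure D2:**
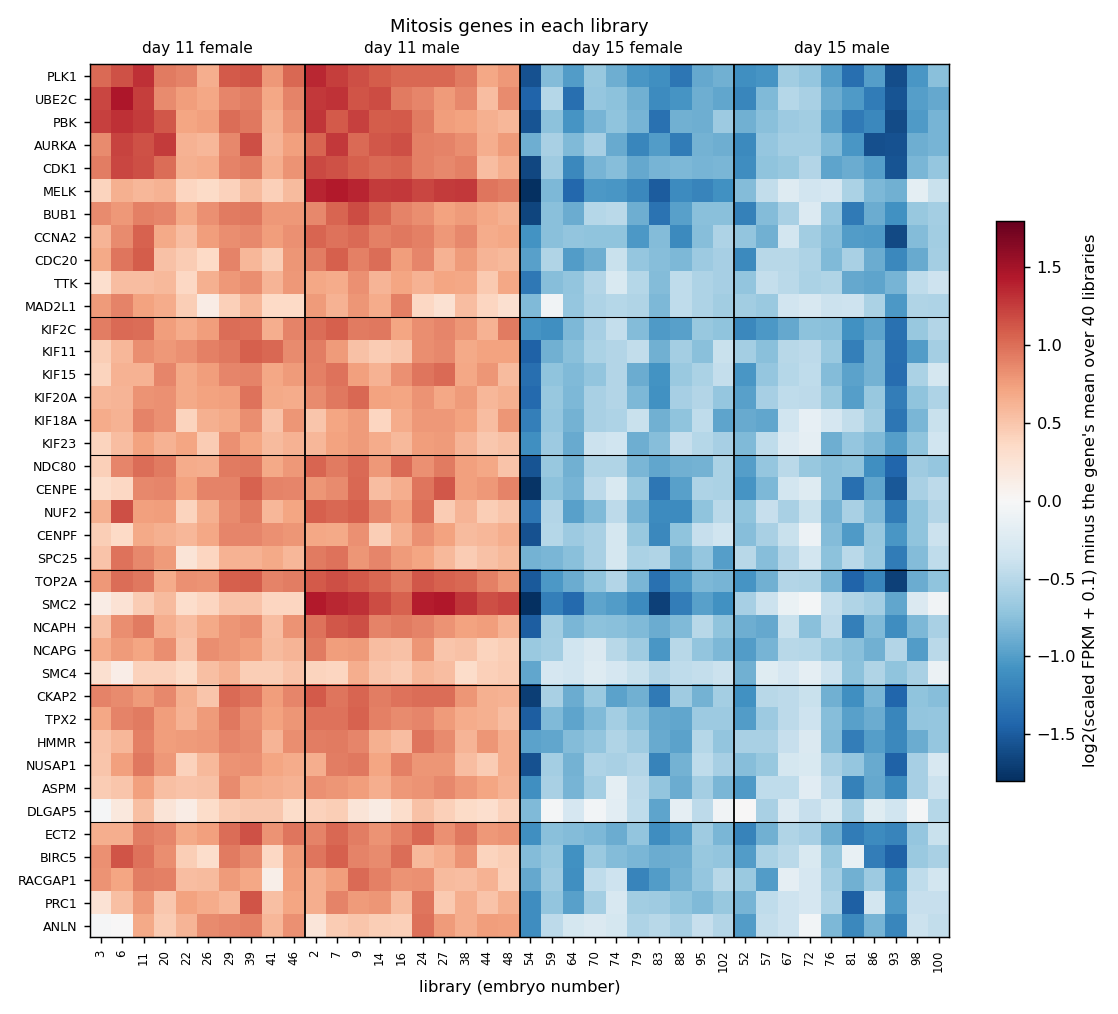
Log2(scaled FPKM + 0.1) of each of the 38 mitosis genes (rows, by role) in each of the 40 libraries (columns, by group and embryo number), minus the mean of the gene over all libraries. Red is above and blue below that mean; day 15 female 54 and day 15 male 93 are dark blue columns, and SMC2 and MELK are the rows that differ between the sexes.

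Levels at day 11 spanned a wide range. FPKM are per length, so a comparison between genes rests on the gene models, some of which are short or share exons with other genes. CDK1 led with medians of 98.6 FPKM in day 11 females and 104 in day 11 males. Over the 20 day 11 libraries the medians were 67 FPKM for UBE2C, followed by BIRC5 at 51.7, TOP2A at 42.3 and CDC20 at 35.7. The order pools the sexes and differs in day 11 males, where the median of SMC2, at 49.8 FPKM, lay above that of TOP2A, at 45.1. The lowest day 11 library of CDK1, at 82.9 FPKM, lay below the highest of UBE2C, at 87.8, so neighbours in this order overlapped in single libraries. At the low end stood CENPF at 5.25 and KIF18A at 5.17. The Spearman correlation of the day change with transcript length was 0.11 across the 38 members and 0.07 across 14817 tested genes of known length. Genes are not independent replicates, and the part of length in the day change was not tested.

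The sexes differed in 2 of 38 members, SMC2 and MELK, both higher in males and both on chromosome Z, of which males carry a pair and females a single copy. Of all tested genes 4.87% differed by sex. At day 11 the same pair was called, against 3.49% of all genes, and at day 15 again, against 3.5%. Of the 676 tested genes on chromosome Z, 65.7% were higher in males, with a median difference of 0.48 on the log2 scale. Both members were thus among a large share of the genes of their chromosome. None of the 36 members elsewhere was called by limma, and 0 reached an unadjusted p under 0.05; their differences ran from -0.10 to 0.10.

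SMC2, the condensin ATPase that pairs with SMC4, lies at chrZ:66668700-66692579 on the minus strand of GRCg6a. Its 2 transcripts together hold 27 exons that differ in start or end. In day 11 libraries its FPKM ran from 21.1 to 29.2 (median 27.1) in females and from 40.4 to 56.3 (median 49.8) in males. In day 15 libraries it ran from 4.62 to 10.4 (median 8.66) in females and from 10.3 to 19.7 (median 15.0) in males. At day 11 every male lay above every female, and at day 15 the lowest male, 93, was just below the highest female, 70. This order is in unscaled FPKM. For the test, values were divided by scaling factors of 0.9904 for male 93 and 1.014 for female 70, which raises the first and lowers the second. The male minus female difference was 0.88 (SE 0.076, 1.85-fold, adjusted p 1.54e-12 by limma), with 0.89 at day 11 and 0.88 at day 15.

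MELK lies at chrZ:82200619-82223072 on the minus strand, and its 4 transcripts together hold 20 exons that differ in start or end. Its FPKM at day 11 ran from 6.33 to 7.5 (median 7) in females and from 10.1 to 13.3 (median 12.1) in males. At day 15 it ran from 1.17 to 2.61 (median 2.18) in females and from 2.63 to 4.28 (median 3.66) in males. Males and females did not overlap at either day, and the difference was 0.74 (SE 0.073, 1.67-fold, adjusted p 8.63e-11 by limma). It was 0.73 at day 11 and 0.74 at day 15.

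SMC4, on chromosome 9, differed by 0.014 between the sexes (SE 0.059, adjusted p 0.95 by limma), with medians of 19.2 and 19.9 FPKM in day 11 females and males.

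The fall with day did not differ detectably between the sexes. In the sex by day interaction 0 of 38 members were called by limma, against 0.0252% of all genes (4 genes), and 0 members reached an unadjusted p under 0.05. The interaction estimates ran from -0.17 to 0.13 on the log2 scale. For SMC2 the fall was 1.67 in females and 1.68 in males, and the interaction of -0.012 had a 95% interval of -0.32 to 0.29.

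**Figure D3:**
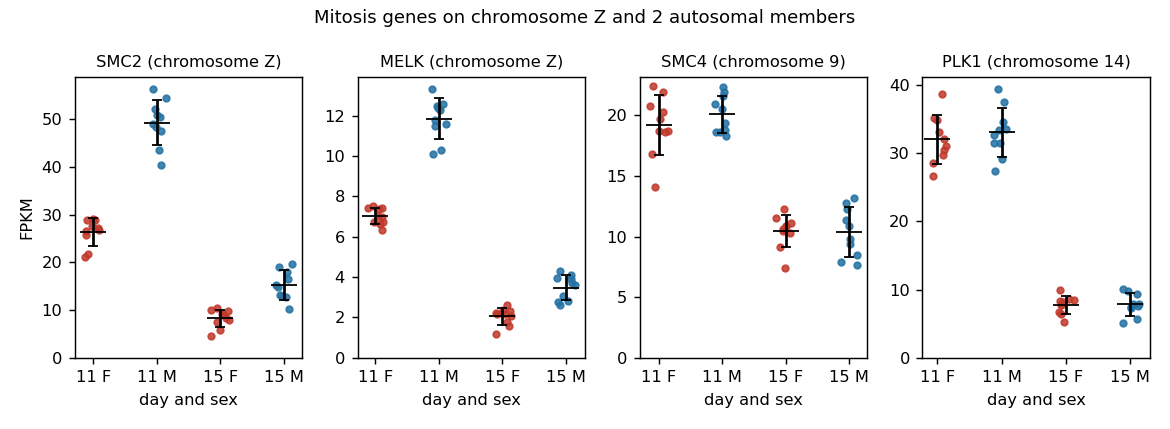
FPKM of the chromosome Z members SMC2 and MELK and of the autosomal members SMC4 and PLK1 (y axes, each from 0) by day and sex, 1 point per embryo (red females, blue males), with the mean and SD of 10 embryos in black. Males lie above females for SMC2 and MELK at day 11, while the sexes overlap for SMC4 and PLK1.

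In the mitosis genes, libraries of the same group differed more from each other at day 15 than at day 11. The median SD of a member within a group was 0.16 at day 11 and 0.29 at day 15 on the log2 scale, and in 37 of 38 members it was larger at day 15. Over all tested genes the median SD was 0.25 at day 11 and 0.23 at day 15, and 44.9% of genes had the larger SD at day 15. Without day 15 female 54 and day 15 male 93 the members' median SD at day 15 was 0.23, and it exceeded that of day 11 in 30 of 38 members, against 44.4% of all genes. The exception among the 38 with all libraries was MAD2L1, with 0.22 at day 11 and 0.21 at day 15.

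Both of these libraries were low in most members. On the scaled log2 scale female 54 was the lowest of its 10 embryos in 26 of 38 members (68.4%), against 12% of all tested genes, and its median member was 0.53 below the group mean. Male 93 was the lowest in 27 of 38 (71.1%), against 10.3% of all genes, and its median member was 0.51 below. They differed in the replication genes, where female 54 was the lowest in 7 of 45 and male 93 in 24 of 45. Of the markers of other cell types, male 93 was the lowest in 6 of 15 leukocyte genes (40%) and in 3 of 14 epithelial genes (21.4%). Female 54 was the lowest in 3 of 10 smooth muscle and mural genes (30%) and in 2 of 13 erythroid genes (15.4%). In the endothelial markers both were the lowest in 0 of 10. The part of these cell types in the low levels was not tested.

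At the high end, the members of day 15 male 72 lay on average 0.33 above their group means on the scaled log2 scale. Those of day 15 female 74 lay 0.24 above, and both were the highest averages of their groups. Day 15 female 83, low in endothelial genes, was the lowest on the scaled log2 scale in 4 of 38 members (10.5%), against 17.4% of all tested genes. In the replication genes female 83 was the lowest in 24 of 45 (53.3%). The median day change of the members was -1.47 without female 54 and male 93, and -1.52 without female 83, and 38 of 38 members were called in both cases.

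Across embryos of the same group the members moved together. Over the 703 pairs of members the median Pearson correlation of the deviations from the group means was 0.586 in 40 libraries, against -0.001 over all pairs of tested genes. It was 0.452 over the 20 day 11 libraries and 0.659 over the 20 day 15 libraries, or 0.529 there without female 54 and male 93. The points share their library, its depth and its tissue make-up, so the values are a description. At day 15 the closest pair was SMC2 and NUSAP1 (0.962), and at day 11 BIRC5 and CDK1 (0.929).

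The members closest to the mean of the other members over 40 libraries were TPX2 (0.928) and NUSAP1 (0.922). The least close were DLGAP5 (0.37) and NCAPG (0.383). ANLN changed place between the days, with -0.04 at day 11 and 0.856 at day 15. At day 11 ANLN and MAD2L1 had the lowest correlation of any pair, -0.745. ANLN rose and MAD2L1 fell with embryo number at day 11, as given below. With the slope on embryo number also removed, the day 11 correlations of member pairs ran from -0.481 to 0.913 (median 0.473).

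Of the genes outside the list, those whose deviations were most like the members' mean (Pearson, 40 libraries) were ARHGAP19 (0.903), and KPNA2, a nuclear import receptor (0.902). KIF4B, a gene model named as a chromokinesin, followed with 0.868, then the checkpoint kinase BUB1B (0.853), the cyclin CCNB1 (0.833), CDCA3 (0.831), the ribonucleotide reductase subunit RRM2 (0.828) and the centrosome kinase NEK2 (0.819). The helicase subunit MCM3 and the factor FOXM1 both had 0.807, and DGUOK, a mitochondrial nucleoside kinase, and UHRF1, which maintains DNA methylation, had 0.803 and 0.793. Whether KIF4B in this annotation is the listed KIF4A was not settled, and it was not counted as a member. It had a day 11 median of 24.4 FPKM and a day 15 median of 6.86, a change of -1.88 (SE 0.072). CCNB1, the cyclin of mitotic entry, went from 57.6 to 19 FPKM, a change of -1.60 (SE 0.061).

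Within day 11 some members varied with the number in the embryo's label, whose meaning the labels do not give. The slope of level on number was called in 6 of 38 members, against 32.4% of all tested genes, and 12 of 38 reached an unadjusted p under 0.05, against 41.7% of all genes. The 5 falling members were PBK, UBE2C, MAD2L1, CDK1 and BIRC5, and ANLN rose. Without day 15 female 54 and day 15 male 93, which enter through the shared estimate of the spread, 11 members were called, against 32.4% of all genes, and 13 by limma with voom weights on reads recovered from the FPKM, against 33.6%. The shares of members in both of these fits are near those of all genes. In the fit that called 6, 13.2% of members were called falling and 2.63% rising, against 16.8% and 15.6% of all genes. The shares of members and of all genes in that fit are not a like comparison, because the days share the estimate of the spread. The median SD within groups was 0.16 at day 11 and 0.29 at day 15 in the members, against 0.25 and 0.23 over all genes. At day 15 the slope was called in 0 of 38 members and in 0.0% of all genes, with 0 members and 1163 genes at an unadjusted p under 0.05 (limma). Embryo number and day do not overlap, so they cannot be told apart between days. The fall with day was called in 38 of 38 members with day 11 embryos 2 to 20 alone (median change -1.58) and with 22 to 48 alone (-1.54), but numbers stayed lower at day 11 in both.

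PBK had the steepest fall with number, -0.14 per 10 numbers (SE 0.035, adjusted p 0.00225 by limma). Its FPKM ran from 28.4 to 32.5 (median 31.3) in the 9 embryos numbered 2 to 20 and from 22.3 to 28.4 (median 24) in the 11 numbered 22 to 48. The early numbers lay at or above the late ones. UBE2C fell by 0.13 per 10 numbers (adjusted p 0.00666 by limma), with medians of 78.6 and 66.1 FPKM in the early and late embryos. MAD2L1 fell by 0.11 (adjusted p 0.00502 by limma), with 26.4 to 31.1 and 19.9 to 26.4 FPKM. CDK1 and BIRC5 both fell by 0.10 (adjusted p 0.0189 and 0.0363 by limma), with medians of 109 and 94.6 FPKM and of 56.0 and 45.8 FPKM. The early and late ranges of UBE2C, CDK1 and BIRC5 overlapped.

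ANLN rose by 0.13 per 10 numbers (SE 0.040, adjusted p 0.0109 by limma). Its FPKM ran from 11.5 to 20 (median 16.6) in the early embryos and from 20 to 25.8 (median 22.7) in the late ones. These FPKM are unscaled. On the scaled log scale used for the test the early and late embryos overlapped, with early female 11 at 4.344 and late female 41 at 4.265. Anillin was thus opposite in direction to the falling members.

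The 5 falling members have short gene models, of 801 to 1409 bases (median 1159), while the 32 not called span 783 to 10804 bases (median 3122.5) and ANLN has 3336. Across the 38 members the Spearman correlation of the day 11 slope with length was 0.63, and across 14817 tested genes it was 0.26. For the day 15 slope the values were 0.48 and 0.07. The part of transcript length or RNA quality in these slopes was not tested.

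**Figure D4:**
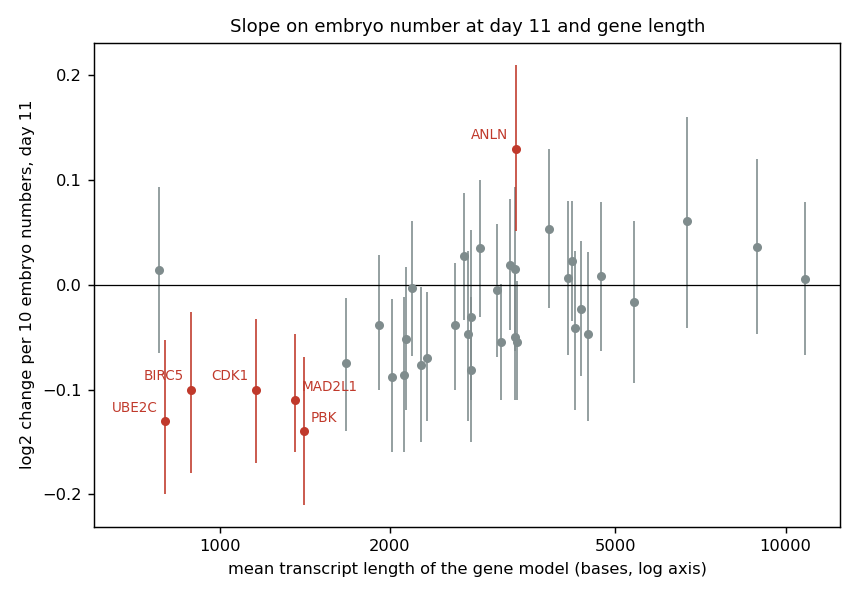
Slope of level on embryo number at day 11 (log2 change per 10 numbers, y axis, bars are 95% intervals) against mean transcript length (log x axis) for the 38 mitosis genes. Red points are the 6 called genes; 5 short ones fall, ANLN rises.

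Other genes of cell division were compared by day in lists chosen by role. Of 57 tested genes in a further list of mitosis genes, 55 were lower and 1 higher, with a median change of -1.12 against 0.00061 over all genes. Among them were CDCA3 (-1.81, SE 0.10), a trigger of mitotic entry, KPNA2 (-1.79, SE 0.077), DEPDC1B (-1.73, SE 0.083) and the centromere protein CENPM (-1.65, SE 0.12). Of 45 replication genes 43 were lower and 0 higher, with a median of -0.95. RRM2, which makes deoxynucleotides, changed by -1.90 (SE 0.072), GINS2 of the replicative helicase by -1.85 (SE 0.078), the origin-firing kinase CDC7 by -1.75 (SE 0.083) and cyclin CCNE2 by -1.55 (SE 0.090).

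The regulators that switch these genes on and off changed less evenly. Of 19 tested cell cycle transcription factors and pocket proteins, 13 were lower and 1 higher, with a median of -0.34. FOXM1 went from 8.84 to 14.5 FPKM (median 11.7) over the 20 day 11 libraries to 2.18 to 5.90 (median 3.84) over the 20 day 15 libraries. The days did not overlap, and the change was -1.56 (SE 0.075). The repressors E2F8 and E2F7 changed by -1.15 (SE 0.066) and -1.05 (SE 0.13), and the activator E2F3 by -0.87 (SE 0.10). MYBL2 changed by -0.34 (SE 0.050), and RBL2, the pocket protein of the DREAM complex, rose by 0.16 (SE 0.043), the only called gene of its list that did.

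Of 8 tested G1 cyclins, kinases and drivers, 5 were lower and 1 higher (median -0.46), with CDK2 at -1.05 (SE 0.064) and the transcription factors MYCN and MYC at -0.83 (SE 0.059) and -0.53 (SE 0.068). Of 16 cell cycle inhibitors, 7 were higher and 3 lower, with a median of 0.11, against 29.9% higher and 30.3% lower over all genes. CDKN3, a phosphatase that acts on CDKs, fell by 1.09 (SE 0.073) and CDKN2C, an inhibitor of the G1 kinases, fell by 0.86 (SE 0.075). BTG2 and TOB1, a related pair of antiproliferative proteins, rose by 0.70 (SE 0.044) and 0.64 (SE 0.045). BTG2 ran from 103 to 163 FPKM (median 132) at day 11 and from 175 to 265 (median 206) at day 15, so its days did not overlap. CDKN1B rose by 0.29 (SE 0.037), and CDKN1A changed by 0.055 (SE 0.11, adjusted p 0.687 by limma).

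Near relatives of the members with their main roles outside the mitotic spindle were called at shares near those over all genes (30.3% lower and 29.9% higher). Of 19 tested transport kinesins 4 were lower and 7 higher (median 0.051), and of 8 genes of cohesin and the SMC5/6 complex 3 were lower and 3 higher (median -0.075). Among these, KIF5C changed by -1.05 (SE 0.081) and KIF9 by 0.71 (SE 0.061), and the cohesin subunits RAD21 and SMC3 by -0.28 (SE 0.028) and -0.19 (SE 0.025). In the cohesin and SMC5/6 list STAG2 and WAPL both rose by 0.25 (SE 0.075 and 0.049). Of 16 tested genes of the APC/C, 12 were lower and 1 higher, but by little (median -0.22), with UBE2S, which extends its ubiquitin chains, at -0.76 (SE 0.058). The CDC20 and UBE2C members of the same pathway, by contrast, fell by 1.5 and 1.93.

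**Figure D5:**
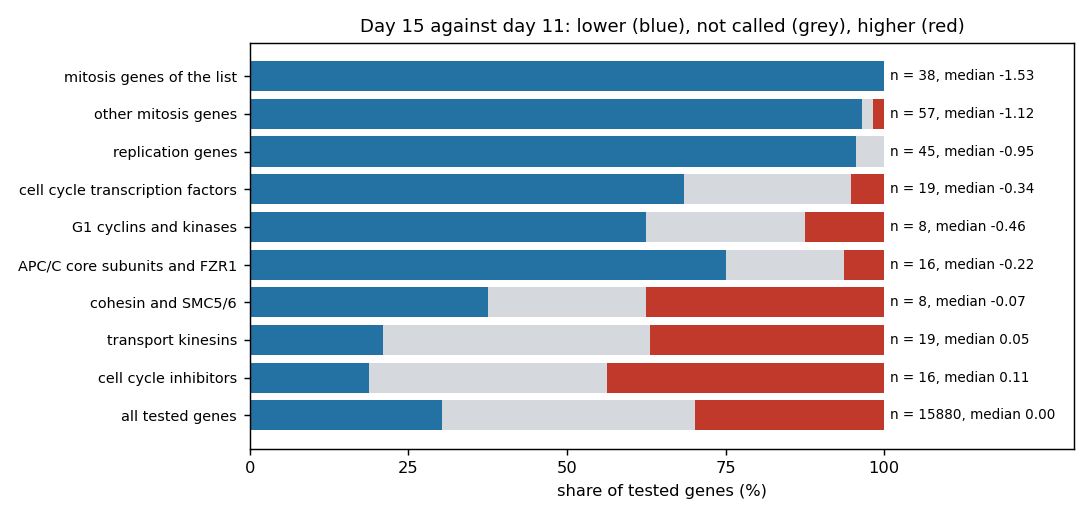
Share of tested genes (x axis, %) called lower (blue), not called (grey) or higher (red) at day 15 against day 11 in the mitosis list, in 8 related gene lists and over all tested genes. The number of tested genes and the median log2 change are printed beside each bar; mitosis and replication genes are nearly all lower, and transport kinesins and inhibitors have shares nearer those of all genes.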

How the data were processed

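The file given by the authors is labelled as raw counts, yet the 26152 gene models in its 40 columns carry FPKM. Single-transcript genes (15718) show it: each value under 200 reads was a whole multiple of 1 read's worth (100.0% within 0.01), and the same steps gave the depth. HISAT2, HTSeq and GRCg6a are listed, per the submitters' processing notes, while tool versions and strand setting were not given in the sources used here. Libraries were prepared with an NEBNext Ultra kit, per the labels' protocols. Every column matched 1 sample (0 unmatched); the names of a pair of day 15 columns give only the end of the embryo number.

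The deposited FPKM were scaled between libraries by trimmed, unweighted log ratios (30% of ratios and 5% of levels cut at each end) and transformed to log2(scaled FPKM + 0.1), which understates changes of low genes. limma 3.58.1 (R 4.3.3, statmod 1.5.0) with trend and robust moderation was fitted to the 4 group means over 15880 genes with at least 0.5 FPKM in 10 libraries, with Benjamini-Hochberg adjustment over these genes at 0.05. The slope on embryo number was fitted within each day. Summaries used Python 3.11.15, numpy 2.4.6 and pandas 2.3.3.

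The members and lists were chosen with earlier results of these data known. Full values were given for the largest and smallest change and highest level of each role, the chromosome Z members and up to 5 members called for sex or number (BIRC5, the sixth for number, is also the highest of its role), and from other lists for up to 4 called genes with the largest change and a mean log2 level of at least 0. The 12 genes closest to the members in co-variation were also named. MYBL2, RBL2, CDKN1A, CDKN1B and the values of CCNB1 and BTG2 were chosen after their values were seen. Alternatives were scaling, pseudocount, filter, moderation and libraries left out. Promoter motifs, planned, were not analysed here.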

Additional observations from a re-analysis of the deposited data

Results flagged for a closer look

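A library was singled out by its gap to the nearest other embryo of its group, divided by the range of the group, on the scaled log2 scale. This gap share had to exceed Dixon's 95% critical value for 10 samples. The FPKM given beside the shares are unscaled, so the shares cannot be worked out from them. Next lowest and next highest refer to the scaled log2 scale. Of 152 such group tests of the 38 mitosis genes, 14 met it. The members co-vary and share their libraries, so these tests are not independent, and the count cannot be set against a chance rate.

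Day 15 female 54 was the lowest of its group in 8 of them. The gap share was 0.625 for TPX2 (6.70 FPKM, next lowest on that scale 9.83). In unscaled FPKM female 83, at 9.34, was nearer for TPX2. The share was 0.616 for NDC80 (1.56 and 2.30), 0.614 for ANLN (5.72 and 8.34), 0.607 for NCAPH (2.14 and 3.06) and 0.578 for SMC4 (7.37 and 9.15). It was 0.559 for KIF11 (2.87 and 4.08), 0.501 for TTK (2.71 and 3.63) and 0.479 for CDK1 (16.8 and 23.5).

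Day 15 male 93 was the lowest in 4, with 0.527 for SPC25 (3.10 and 4.39 FPKM), 0.488 for NUF2 (4.30 and 5.86), 0.482 for MAD2L1 (8.23 and 10.8) and 0.467 for NUSAP1 (3.97 and 5.96). Day 11 female 41 was the lowest in RACGAP1, with 0.559 (11.6 and 15.9 FPKM). Day 15 female 59 was the highest in MAD2L1, with 0.52 (15.5 FPKM, next highest 12.5). No difference in the day change between the sexes was found for any member.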

How the results depend on the processing

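The members called were 38 for day (average, females and males), 2 for sex (average, day 11 and day 15) and 0 for the interaction under each of the 13 alternatives. Each single day change (494 comparisons) and the sex differences of SMC2 and MELK (26) kept their direction and side of the threshold. The median day change ran from -1.38 with a pseudocount of 1 FPKM to -1.58 with day 11 embryos 2 to 20 only, and the median of all genes moved by -0.028 without scaling and by 0.002 with median of ratios scaling. For the slope on embryo number at day 11, 6 members were called, and 4 to 8 under the other settings. Chosen after seeing the data, a fit without day 15 female 54 and day 15 male 93 called 11, and limma with voom weights on reads recovered from the FPKM called 13; the cause was not tested. At day 15 that slope called 0 members in each fit. No paired analysis was possible because embryo numbers are unique and the groups share none. Depth limits the lowest values, and it was inferred from steps in the FPKM. The fewest reads behind a member value were 86, for MELK at day 15. Planned promoter motifs were not run, since no sequences were used.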
